A study of Homo sapiens with 10 samples.

Results

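The 10 genes described here are 3 of the CCN family of secreted matricellular proteins (CCN1, CCN2 and CCN3) and 7 genes of the YAP pathway: the target genes ANKRD1 and AMOTL2, the kinases LATS1 and LATS2, the coactivator YAP1, and the DNA-binding factors TEAD1 and TEAD4. They were taken by symbol from the authors' annotated table of 32152 genes, and all 10 had counts in every library. PolyA RNA was sequenced from an established line of human embryonic stem cells (WAe009-A, or H9): 5 libraries of KCNH2-/- cells (KO 1 to KO 5) and 5 of wild-type cells (WT 1 to WT 5). The product of KCNH2 is hERG1, a potassium channel subunit best known from the heart. The titles and the growth protocol call the edited cells knockout, while the genotype field says knockdown, and the labels used here do not give the edited position or the number of clones. Wild-type cells grew in TeSR-E8 and KCNH2-/- cells in mTeSR Plus, both on Matrigel for at least 4 days to near confluency, so genotype and medium cannot be told apart in any comparison below. No label ties the libraries of a group to separate cultures, so each p-value measures only the spread between these libraries, which may be technical.

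In the Hippo pathway, the kinases STK3 and STK4 with the scaffold SAV1 activate LATS1 and LATS2, which phosphorylate YAP1 and its paralogue TAZ (gene WWTR1). Phosphorylated YAP1 is kept in the cytoplasm, and unphosphorylated YAP1 enters the nucleus and binds TEAD factors, which recognise CATTCC-type sites in DNA. CCN1, CCN2, ANKRD1 and AMOTL2 are widely used as readouts of YAP and TAZ, and the pathway responds to cell density, adhesion and the actin cytoskeleton. CCN proteins are deposited around cells and bind integrins and proteoglycans. RNA levels do not report where YAP1 protein is or whether it is phosphorylated.

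Because TEAD factors act through such sites, the 250 bases before the annotated start were searched for CATTCC and for the longer ACATTCC on both strands. Windows came from RefSeq (GRCh38.p14) and existed for 6 of the 10 genes, with 2 start sites each for AMOTL2 and LATS1. CCN1, CCN3, TEAD1 and TEAD4 had no window and were not searched. The windows of CCN2, ANKRD1, AMOTL2 and YAP1 held a match and are shown, 5′ to 3′ on the gene's strand, with CATTCC or its reverse complement GGAATG in capitals.
CCN2: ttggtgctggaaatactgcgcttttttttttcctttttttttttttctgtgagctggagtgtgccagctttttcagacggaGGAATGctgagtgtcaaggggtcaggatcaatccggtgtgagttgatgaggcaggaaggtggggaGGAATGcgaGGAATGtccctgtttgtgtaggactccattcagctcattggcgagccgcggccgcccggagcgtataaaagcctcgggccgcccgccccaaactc
ANKRD1: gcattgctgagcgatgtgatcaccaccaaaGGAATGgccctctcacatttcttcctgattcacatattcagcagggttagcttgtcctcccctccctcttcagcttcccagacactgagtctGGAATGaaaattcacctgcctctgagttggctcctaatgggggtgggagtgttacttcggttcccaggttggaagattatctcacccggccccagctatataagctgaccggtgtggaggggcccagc
AMOTL2: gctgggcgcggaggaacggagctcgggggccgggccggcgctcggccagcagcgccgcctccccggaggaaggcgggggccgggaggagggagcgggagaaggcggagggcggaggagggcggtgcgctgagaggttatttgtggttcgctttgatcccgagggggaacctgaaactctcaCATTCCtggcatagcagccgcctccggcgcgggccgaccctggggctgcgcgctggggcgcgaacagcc
YAP1: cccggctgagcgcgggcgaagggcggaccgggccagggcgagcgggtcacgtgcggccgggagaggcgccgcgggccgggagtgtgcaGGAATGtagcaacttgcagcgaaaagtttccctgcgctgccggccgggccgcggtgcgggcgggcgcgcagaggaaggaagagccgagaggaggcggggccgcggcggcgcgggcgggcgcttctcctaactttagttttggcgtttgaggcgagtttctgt

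The CCN2 window is chr6:131951373-131951622 on the minus strand and held 3 matches, at -169 to -164, -104 to -99 and -95 to -90 counted from the start site. ANKRD1, at chr10:90921088-90921337 on the minus strand, held 2, at -220 to -215 and -128 to -123. The second AMOTL2 start, at chr3:134374448-134374697 on the minus strand, held 1 at -69 to -64, and the YAP1 window, at chr11:102110197-102110446 on the plus strand, held 1 at -162 to -157. The first AMOTL2 window, both LATS1 windows and the LATS2 window held none. Of all 35116 windows of this length in the RefSeq table, 11.9% held CATTCC. The longer ACATTCC, which contains the shorter motif, was in 1 of the matches of CCN2, in that of AMOTL2 and in that of YAP1, and in 2.96% of all windows. The pattern TGANTCA, looser than the AP-1 site because any base may stand at its centre, was in 6.57% of all windows. It was in the ANKRD1 window at -195 to -189 (TGATTCA) and in the second LATS1 window at -245 to -239 (TGAATCA). Neither match has the G or C that the AP-1 consensus has at its centre. A CArG box, the site of the factor SRF, was in none of the 8 windows and in 1.16% of all. These matches describe the letters only.

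Library totals ran from 28615751 to 47319933 counts, and levels are given as CPM, the counts per 1000000 of a library size scaled by TMM. On the second principal component of all tested genes (28.3% of the variance), KO 3 lay at -59.1 and the other KO libraries between -2.3 and 13.9. WT 2 and WT 3 lay at -10.1 and -32.2, below the other WT libraries. KCNH2 RNA fell from 15.5 ± 0.754 to 12.2 ± 1.0 CPM (SD, n = 5 each), a log2 difference of -0.35 (SE 0.06; edgeR adjusted p = 0.000648) with no overlap. Its level says nothing about loss of the protein. All 6 markers of pluripotent cells were tested (summed level 6387 to 6777 CPM in KO, 5638 to 5882 in WT), with 3 higher in KO and 0 lower by edgeR, also 0 at an unadjusted p under 0.05 and 0 by DESeq2 and limma voom. Calls were frequent throughout: of all 19163 tested genes 21.9% were higher in KO and 24.1% lower. Of 5 smooth muscle markers 3 rose and 1 fell, and their sum was 229 to 669 CPM in KO against 165 to 192 in WT, most of it TAGLN. MYH11, the smooth muscle myosin, which was named after its values were seen, fell by 0.63 on the log2 scale (edgeR adjusted p = 0.000285) and was at 1.67 CPM in KO and 2.60 CPM in WT. Of 6 tested fibroblast and mesenchyme markers 0 rose (0 also by the other tools and at an unadjusted p under 0.05) and 3 fell. Their sum was 832 to 956 CPM in KO and 952 to 1028 in WT, most of it THY1. THY1, named after its values were seen, was at 730 CPM in KO and 729 CPM in WT and did not pass (edgeR adjusted p = 0.991). Of 5 tested endothelial markers 2 rose and 3 fell (81.9 to 85.2 CPM against 75.9 to 80.7). Primitive streak and mesoderm markers summed to at most 1.99 CPM. The listed markers DCN, LUM, SOX17 and CGA were not found among the genes with deposited counts, so their levels are not known here. The part of other cell types in the results below was not tested, and in bulk RNA fewer cells of a type and less RNA per cell cannot be told apart.

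CCN1 and CCN2 were higher in every KO library than in every WT library, and they differed strongly among the KO libraries. CCN1 encodes CYR61, a secreted regulator of adhesion and angiogenesis (chr1:85580761-85583962, plus strand, GENCODE 29 on GRCh38). CCN1 was at 132, 152, 506, 361 and 243 CPM in KO 1 to KO 5 and at 80.3, 71.1, 71.2, 72.1 and 75.2 CPM in WT 1 to WT 5. KO 3 and KO 4 were highest, KO 1 and KO 2 lowest, and the WT libraries lay close together. The means were 279 ± 156 and 74.0 ± 3.92 CPM (SD, n = 5 each), a 3.77-fold difference. CCN1's log2 fold change was 1.92 (SE 0.32; 95% interval 1.22 to 2.61; edgeR adjusted p = 0.000434). Without KO 3 and KO 4, which were left out after the values had been seen, it was 1.25 (0.90 to 1.60; edgeR adjusted p = 0.000198).

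CCN2, or CTGF, is a secreted profibrotic factor (chr6:131948176-131951373, minus strand). CCN2 was at 159, 216, 560.3, 469.9 and 298 CPM in KO 1 to KO 5 and at 136, 119.9, 122, 113 and 127 CPM in WT 1 to WT 5. The KO libraries stood in the same order as for CCN1, and again none lay within the WT range. The means were 341 ± 169.8 and 124 ± 8.47 CPM, a 2.76-fold difference. CCN2's log2 fold change was 1.46 (SE 0.29; 95% interval 0.84 to 2.09; edgeR adjusted p = 0.00136), and without KO 3 and KO 4 it was 0.86 (0.52 to 1.21; edgeR adjusted p = 0.00151). For both genes the exact two-sided permutation test of log2 CPM gave p = 0.00794, the smallest that 5 against 5 libraries allow. The authors' deposited table gives smaller log2 fold changes, of 1.02 for CCN1 and 0.87 for CCN2.

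**Figure D1:**
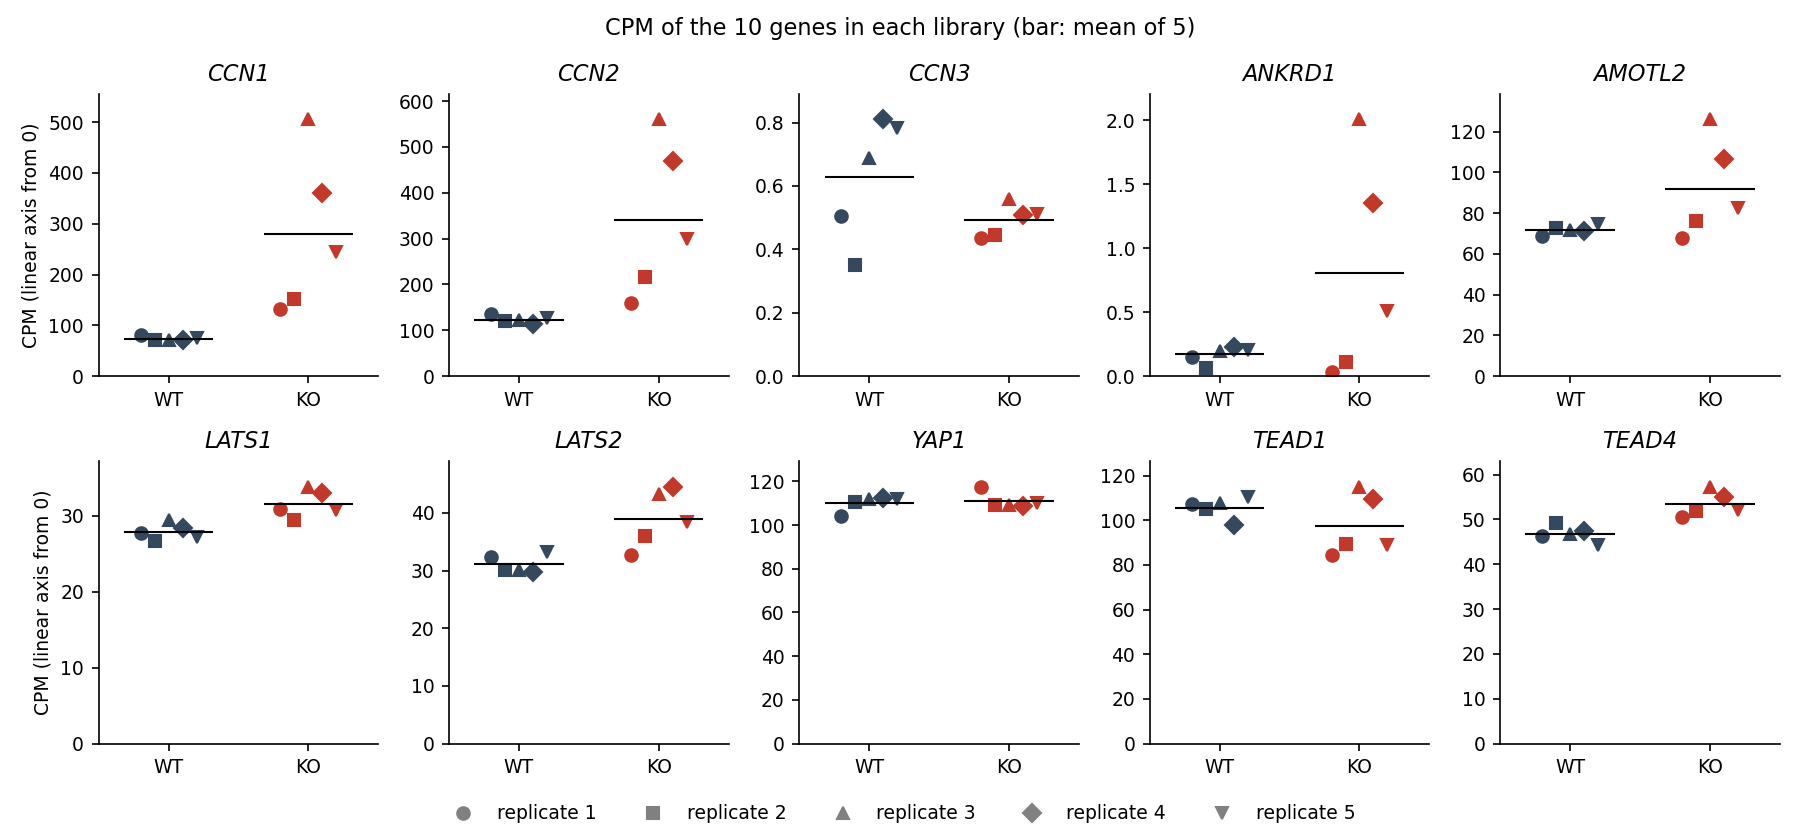
CPM (linear axis from 0) of the 10 genes in each WT and KO library, one panel a gene; marker shapes give the replicate number and bars the mean of 5. CCN1 (132 to 506 CPM) and CCN2 (159 to 560.3 CPM) lie above all WT libraries and spread widely among the KO libraries, while YAP1 stays between 104 and 118 CPM in all 10.

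CCN1 rose more than CCN2. Per kilobase of transcript, the ratio of CCN1 to CCN2 was 0.849, 0.721, 0.921, 0.784 and 0.833 in KO 1 to KO 5 and 0.603, 0.605, 0.599, 0.649 and 0.606 in WT 1 to WT 5. Every KO ratio was above every WT ratio, with means of 0.822 ± 0.0749 and 0.612 ± 0.0206 (exact two-sided permutation p = 0.00794; 0.0185 adjusted over the 7 ratios and shares tested here). This ratio was chosen after the values of both genes had been seen. Per length CCN2 was the more abundant of the pair in all 10 libraries, with group means of 145.7 and 122 CPM per kb for CCN2 and CCN1 in KO and 52.8 and 32.3 in WT.

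The rest of the CCN family had few counts. CCN3, or NOV, a family member often found to act against CCN2, was at 0.437, 0.445, 0.558, 0.509 and 0.513 CPM in KO 1 to KO 5. In WT 1 to WT 5 CCN3 was at 0.506, 0.351, 0.690, 0.811 and 0.782 CPM. These values rest on 13 to 20 counts per KO library and 17 to 31 per WT library, and the groups overlapped. CCN3's log2 fold change was -0.32 (SE 0.24; 95% interval -0.84 to 0.19; edgeR adjusted p = 0.287), so a difference was not detectable at this depth. CCN4, CCN5 and CCN6 did not pass the filter on low counts. Over 5 libraries each, CCN4 had 0 counts in KO and 4 in WT, CCN5 had 3 and 6, and CCN6 had 31 and 30.

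ANKRD1, a muscle ankyrin repeat protein and a classical YAP target (chr10:90912096-90921276, minus strand), had 1, 4, 72, 53 and 18 counts in KO 1 to KO 5. In WT 1 to WT 5 ANKRD1 had 6, 3, 9, 8 and 6 counts. KO 3, KO 4 and KO 5 exceeded every WT library, and KO 1 and KO 2 did not: in CPM they were at 0.0336 and 0.111, against 2.01, 1.35 and 0.513 for KO 3 to KO 5 and 0.0620 to 0.232 in WT. For scale, 3 counts, the most that a count of 0 allows, equal 0.0620 to 0.102 CPM on these scaled library sizes. ANKRD1 did not pass the filter and was not among the tested genes. With no filter its log2 fold change was 2.29 (SE 0.75; 95% interval 0.67 to 3.90; edgeR adjusted p = 0.0369), while the exact two-sided permutation test of log2 CPM gave p = 0.254. The authors' deposited table gives a log2 fold change of 0.44 and an adjusted p of 0.0202.

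AMOTL2, an angiomotin that binds YAP1 and is itself a YAP target (chr3:134355874-134375479, minus strand), was at 67.8, 75.9, 126, 107 and 82.7 CPM in KO 1 to KO 5. In WT 1 to WT 5 AMOTL2 was at 68.9, 72.9, 71.8, 71.0 and 74.6 CPM. KO 1 lay below all WT libraries and the other 4 KO libraries above them. AMOTL2's log2 fold change was 0.36 (SE 0.14; 95% interval 0.049 to 0.66) and did not pass (edgeR adjusted p = 0.0566; exact two-sided permutation p = 0.0873). It passed with an offset for transcript length and GC content (0.44; edgeR adjusted p = 0.0238), with a block on the replicate number (0.32; edgeR adjusted p = 0.0429), without KO 1 (0.46; edgeR adjusted p = 0.0120) and without KO 2 (0.42; edgeR adjusted p = 0.0348). Without KO 3 and KO 4 AMOTL2 was at 0.073 (edgeR adjusted p = 0.321). A pseudogene (RPL39P5) and a microRNA gene (MIR6827) lie within AMOTL2 on the same strand, so shared reads cannot be told apart there.

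Both LATS kinases rose by small amounts. LATS1 (chr6:149658153-149718256, minus strand) was at 30.9, 29.4, 33.8, 33.0 and 30.7 CPM in KO 1 to KO 5 and at 27.7, 26.6, 29.4, 28.3 and 27.2 CPM in WT 1 to WT 5. KO 2 lay just within the WT range and the other KO libraries lay above it. The means were 31.6 ± 1.80 and 27.8 ± 1.07 CPM. LATS1's log2 fold change was 0.18 (SE 0.04; edgeR adjusted p = 0.00573; exact two-sided permutation p = 0.0159). With the length and GC offset it was 0.28 (edgeR adjusted p = 0.000215).

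LATS2 (chr13:20973032-21061547, minus strand), which is itself induced by YAP and so forms a feedback loop, was at 32.8, 36.1, 43.2, 44.6 and 38.4 CPM in KO 1 to KO 5. In WT 1 to WT 5 LATS2 was at 32.3, 30.1, 30.2, 29.7 and 33.2 CPM. KO 1 lay within the WT range, and KO 3 and KO 4 were again highest. The means were 39.0 ± 4.91 and 31.1 ± 1.55 CPM. LATS2's log2 fold change was 0.33 (SE 0.08; edgeR adjusted p = 0.00422), and it was 0.20 without KO 3 and KO 4 (edgeR adjusted p = 0.0171). The ratio of LATS2 to LATS1 per kilobase was 1.68 in KO and 1.53 in WT (exact two-sided permutation p = 0.0873; adjusted 0.102).

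YAP1 RNA was nearly level. YAP1 (chr11:102110461-102233423, plus strand) was at 118, 109, 109, 109 and 110.1 CPM in KO 1 to KO 5 and at 104, 111, 112, 112 and 112 CPM in WT 1 to WT 5. The lowest value was WT 1 and the highest KO 1, and the other 8 libraries lay between 108.9 and 112.3 CPM. The means were 111 ± 3.70 and 110.2 ± 3.39 CPM. YAP1's log2 fold change was 0.0094 (SE 0.03; 95% interval -0.058 to 0.076; edgeR adjusted p = 0.824). With the length and GC offset it was 0.079 (0.018 to 0.14; edgeR adjusted p = 0.0374), so the call depends on that correction. The paralogue WWTR1, which encodes TAZ and was named after its values were seen, rose from 24.0 to 28.7 CPM with no overlap, a log2 fold change of 0.26 (edgeR adjusted p = 0.0104). Per kilobase the ratio of YAP1 to WWTR1 was 3.66 ± 0.493 in KO and 4.30 ± 0.206 in WT (exact two-sided permutation p = 0.0317; adjusted 0.0556), with overlap between the groups.

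TEAD1 (chr11:12674591-12944483, plus strand) was at 84.4, 89.2, 115, 109 and 88.9 CPM in KO 1 to KO 5 and at 107, 105, 108, 97.7 and 111 CPM in WT 1 to WT 5. KO 1, KO 2 and KO 5 were below all WT libraries and KO 3 above all of them. TEAD1's log2 fold change was -0.12 (SE 0.08; 95% interval -0.29 to 0.062; edgeR adjusted p = 0.270). Without KO 3 it was -0.18 (edgeR adjusted p = 0.0499), and without KO 3 and KO 4 it was -0.27 (edgeR adjusted p = 0.000625). The KO libraries with the most CCN1 and CCN2 were thus also those with the most TEAD1.

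TEAD4 (chr12:2959330-3040673, plus strand), a TEAD factor best known from the trophectoderm of the early embryo, was at 50.5, 51.8, 57.3, 55.0 and 52.1 CPM in KO 1 to KO 5. In WT 1 to WT 5 TEAD4 was at 46.4, 49.1, 46.8, 47.5 and 44.3 CPM. Every KO library was above every WT library, and the KO libraries were close to each other. The means were 53.3 ± 2.74 and 46.8 ± 1.75 CPM. TEAD4's log2 fold change was 0.19 (SE 0.04; edgeR adjusted p = 0.00248). With the length and GC offset TEAD4 was at 0.097 and no longer passed (edgeR adjusted p = 0.0620).

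**Figure D2:**
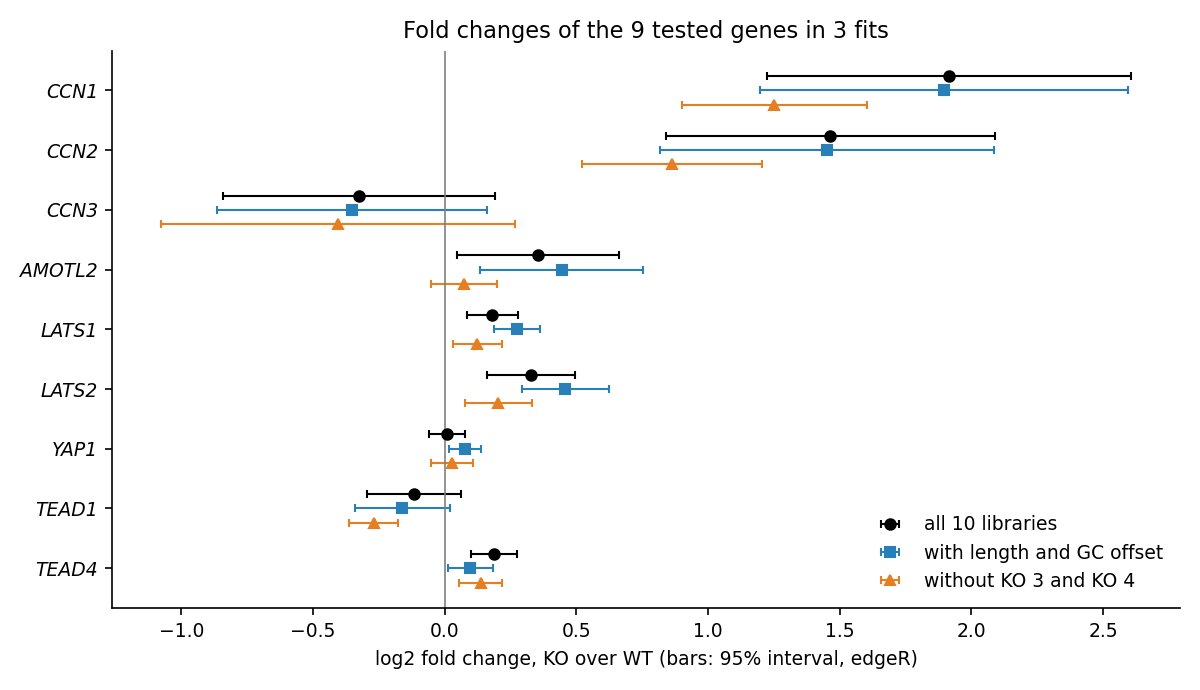
Log2 fold change, KO over WT, of the 9 tested genes in 3 edgeR fits (all 10 libraries, with a length and GC offset, and without KO 3 and KO 4), with 95% intervals. CCN1 goes from 1.92 to 1.25 and CCN2 from 1.46 to 0.86 without KO 3 and KO 4, AMOTL2 from 0.36 to 0.073, and TEAD1 from -0.12 to -0.27.

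Counted together, 9 of the 10 genes passed the filter on low counts, and ANKRD1 did not. Of the 9, the genes CCN1, CCN2, TEAD4, LATS2 and LATS1 rose (5), none fell (0) and 4 did not pass the threshold. None was lower at an unadjusted edgeR p under 0.05 either (0), nor by DESeq2 (0) or limma voom (0). Of the 19163 genes tested, 46% passed, 21.9% higher in KO and 24.1% lower. CCN1, CCN2 and TEAD4 (3 of 9) had no overlap between groups, as did 16.3% of tested genes in that direction and 34% in either. The median log2 fold change of the 9 was 0.19, and that of all tested genes was 0.0018. Without KO 3 and KO 4 the counts were 5 higher and 1 lower, the latter being TEAD1.

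Within the TEAD family, the shares of TEAD3 and TEAD4 rose, while those of TEAD1 and TEAD2 did not pass. Among TEAD1 to TEAD4, TEAD2 was the most abundant per kilobase in both groups, at 62.7 CPM per kb in WT and 63.8 in KO, and its log2 fold change was 0.026 (edgeR adjusted p = 0.624). TEAD3 rose from 44.7 ± 1.83 to 61.3 ± 6.18 CPM with no overlap, a log2 fold change of 0.46 (edgeR adjusted p = 0.000123). TEAD2 and TEAD3 were named after their values were seen. As shares of the level per kilobase of the 4 genes, TEAD1 was 24.6% ± 1.40 in WT and 21.4% ± 2.16 in KO (exact two-sided permutation p = 0.0397; adjusted 0.0556). TEAD3 was 10.7% ± 0.595 and 13.9% ± 1.04, and TEAD4 19.8% ± 0.496 and 21.4% ± 0.293 (exact two-sided permutation p = 0.00794 each, adjusted 0.0185, no overlap), while TEAD2 was 44.8% and 43.3% (exact two-sided permutation p = 0.325). The shares sum to the whole, so they are not independent of each other. They were computed without the length and GC offset. With that offset TEAD4's own log2 fold change was 0.097 and did not pass (edgeR adjusted p = 0.0620).

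Set in order per kilobase of transcript in WT, CCN2 (52.8 CPM per kb) led the 10 genes, followed by TEAD1 (34.3), CCN1 (32.3), TEAD4 (27.7), YAP1 (20.5), AMOTL2 (16.0), LATS2 (5.64), LATS1 (3.70), CCN3 (0.249) and ANKRD1 (0.0859). In KO, CCN2 (145.7) and CCN1 (122) led, followed by TEAD1 (31.7), TEAD4 (31.6), YAP1 (20.6) and AMOTL2 (20.5), then LATS2 (7.08) and LATS1 (4.20). The libraries of TEAD1 and CCN1 overlapped in WT, as did those of CCN2 and CCN1, of TEAD1 and TEAD4, and of YAP1 and AMOTL2 in KO. YAP1 was the more abundant of the coactivator pair, with WWTR1 at 4.77 CPM per kb in WT and 5.70 in KO.

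**Figure D3:**
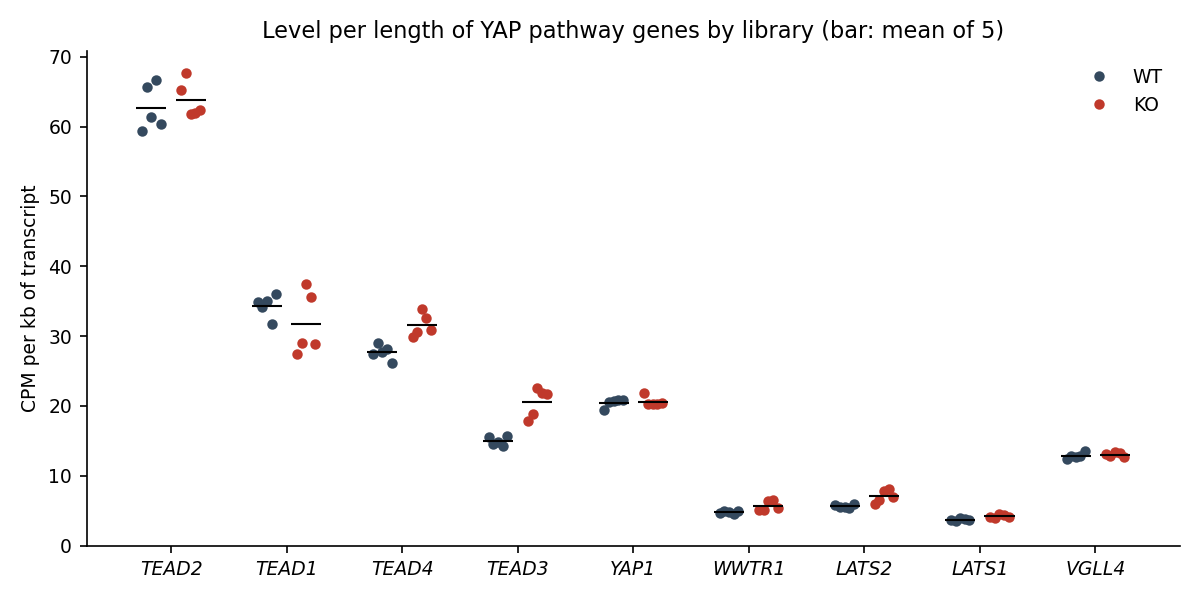
Level per kilobase of transcript (CPM per kb, linear axis from 0) of the TEAD factors, coactivators, LATS kinases and VGLL4 in each WT and KO library; bars are means of 5. TEAD2 leads at 62.7 (WT) and 63.8 (KO), TEAD3 goes from 15.0 to 20.5, and YAP1 stays at 20.5 and 20.6.

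The KO libraries differed more from each other in some of these genes than most genes did. The SD of log2 CPM among KO libraries was 0.816 for CCN1 and 0.756 for CCN2, against 0.0748 and 0.0978 among WT libraries. The median over the 12211 tested genes of at least 5 CPM was 0.0814 in KO and 0.0587 in WT. CCN1 had a larger KO SD than 99.2% of those genes, CCN2 than 98.7%, AMOTL2 than 96.7%, TEAD1 than 91.7% and LATS2 than 89.7%. LATS1 (50.6%), TEAD4 (43.1%) and YAP1 (16.5%) were ordinary or even. The highest KO library exceeded the lowest 3.83-fold for CCN1 and 3.52-fold for CCN2, while among WT libraries these ratios were 1.13 and 1.20.

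Relative to the WT mean, the log2 difference of CCN1 was 0.84, 1.04, 2.77, 2.29 and 1.72 in KO 1 to KO 5. NUAK2, a YAP-induced kinase, followed the same order at 0.42, 0.51, 1.70, 1.53 and 1.07. So did TAGLN, an actin-binding protein of smooth muscle (0.39, 0.75, 2.02, 1.63 and 1.29). THBS1, which encodes the matricellular protein thrombospondin-1, went from -0.19 in KO 1 and 0.25 in KO 2 to 1.54 in KO 3, 1.33 in KO 4 and 0.80 in KO 5. The immediate early genes FOS (4.43, 4.45, 4.30, 4.33 and 4.23) and EGR1 (2.77, 3.01, 2.57, 2.91 and 2.94) were raised evenly in all 5. This did not hold for all immediate early genes. FOSB was at 19.9, 19.3, 10.7, 13.9 and 11.0 CPM in KO 1 to KO 5. IER2, named after its values were seen, stood in the order of CCN1, at 239, 271, 369, 328 and 323 CPM, and was not called (edgeR adjusted p = 0.460).

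**Figure D4:**
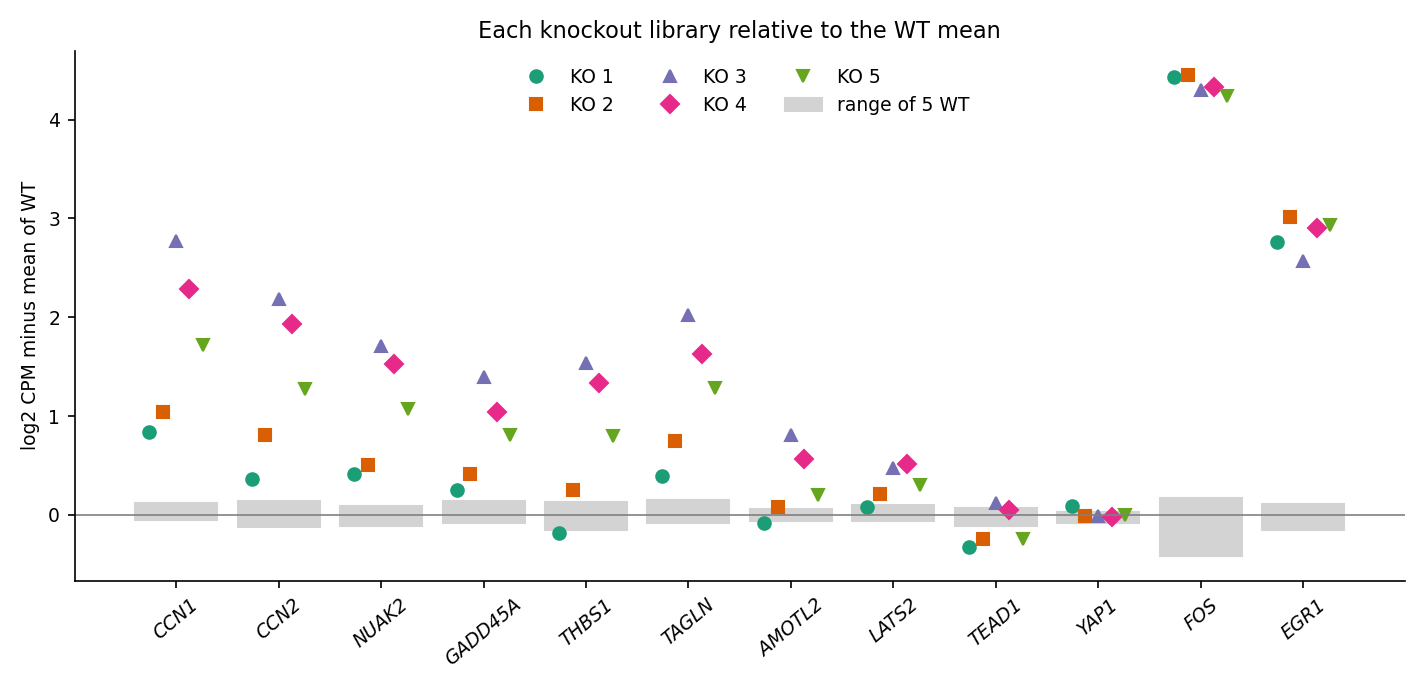
Log2 CPM of each KO library minus the WT mean for 12 genes; grey boxes span the 5 WT libraries. KO 3 and KO 4 lead and KO 1 trails for CCN1, CCN2, NUAK2, GADD45A, THBS1 and TAGLN, while FOS and EGR1 are raised evenly and YAP1 lies near 0.

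With group means removed, CCN1 and CCN2 had a Pearson r of 0.987 over the 10 libraries (Spearman 0.939; 0.976 without KO 1 and KO 3). CCN1 had r = 0.898 with LATS2, 0.899 with TEAD1 and -0.51 with YAP1. Without KO 1 and KO 3 these were 0.842, 0.749 and -0.13. Values without KO 1 and KO 3, here and above, still use the group means of all 10 libraries. Without KO 3 alone, and with group means of the kept libraries removed, the r of CCN1 with YAP1 was -0.53. Leaving out KO 3 by itself thus did not weaken that r. Among genes of at least 5 CPM, the 5 most like CCN1 were JUN (0.995), IER3 (0.993), RHOB (0.993), VGF (0.992) and EPHA2 (0.992). JUN, an AP-1 subunit, was at 33.2, 41.4, 127, 91.7 and 62.9 CPM in KO 1 to KO 5 and at 19.6 to 24.2 CPM in WT (log2 fold change 1.74; edgeR adjusted p = 0.000745). Those most like CCN2 were WDR60 (0.998), IER3 (0.994), PLEKHG3 (0.993), JUN (0.992) and CLCN6 (0.992). PLEKHG3 (log2 fold change 0.0016) and CLCN6 (-0.30) followed CCN2 among libraries without sharing its rise. Those most like ANKRD1 were ATCAY (0.984), ZNF525 (0.983), THBS1 (0.978), ZNF561 (0.978) and MMP24 (0.978). These correlations rest mainly on the 5 KO libraries, each pair of genes shares those libraries and their scaling, and they are given as a description with no test.

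An r of at least 0.9 with CCN1, a limit chosen after the values were seen, was reached by 534 of 12210 other genes of at least 5 CPM (4.37%). It was reached by CCN2 and AMOTL2 among 7 of the other genes described here, by 9 of 17 other YAP/TAZ targets (52.9%), by 12 of 22 SRF-linked genes (54.5%) and by 6 of 49 other Hippo pathway genes (12.2%). PTPN14 and AJUBA, named after their values were seen, reached it and are counted in both the target and the Hippo list.

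With all 10 libraries and no offset, other YAP/TAZ target genes were called in both directions, at shares near those of all tested genes (21.9% higher, 24.1% lower). Of 27 listed, 25 were tested, 7 rose (28.0%) and 8 fell (32.0%). Their median log2 fold change was 0.03. With the length and GC offset the split was 7 higher and 5 lower, and without KO 3 and KO 4 it was 5 and 10. Over all tested genes these fits called 3912 higher and 4585 lower, and 3708 and 4109, against 4201 and 4615. Without KO 3 and KO 4 the targets' lower calls thus increased while those of all tested genes decreased. NUAK2 rose, at 14.2, 15.2, 34.8, 30.9 and 22.5 CPM in KO 1 to KO 5 against 10.7 ± 0.553 CPM in WT (log2 fold change 1.14, SE 0.22; edgeR adjusted p = 0.00139). IGFBP3, a secreted binder of insulin-like growth factors, rose from 2.50 to 4.32 CPM (0.78; edgeR adjusted p = 0.000509). ASAP1, a regulator of Arf GTPases, fell from 58.0 to 45.0 CPM (-0.37; edgeR adjusted p = 0.000115). Also lower were MYOF, a membrane repair protein (-0.73; edgeR adjusted p = 0.000508), the matrix protein gene CCDC80 (-0.74; edgeR adjusted p = 0.000962) and the exchange factor gene ARHGEF17 (-0.24; edgeR adjusted p = 0.00142).

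Among targets named after their values were seen, THBS1 was at 22.5, 30.5, 74.5, 64.6 and 44.6 CPM in KO 1 to KO 5 and at 23.1 to 28.0 CPM in WT. KO 1 lay below all WT libraries and the other 4 above, with a log2 fold change of 0.89 (edgeR adjusted p = 0.0179). GADD45A, a growth arrest gene, was at 25.7, 28.9, 57.1, 44.6 and 38.0 CPM in KO 1 to KO 5 (0.84; edgeR adjusted p = 0.00248). EDN1, the gene of the peptide endothelin-1, had a log2 fold change of 1.17 (edgeR adjusted p = 0.0035).

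Of 56 other Hippo pathway genes listed, 53 were tested, 12 rose (22.6%) and 15 fell (28.3%), near the 21.9% and 24.1% of all tested genes. The median was -0.03. With the length and GC offset the split was 18 higher and 15 lower, and without KO 3 and KO 4 it was 9 and 19. Over all tested genes the calls went from 4201 higher and 4615 lower to 3912 and 4585 with the offset. Without KO 3 and KO 4 they were 3708 and 4109. The list's higher calls with the offset, and its lower calls without KO 3 and KO 4, thus increased while those of all tested genes decreased. TNIK, a MAP4K kinase, fell from 131 ± 5.75 to 74.0 ± 3.46 CPM (log2 fold change -0.82, SE 0.04; edgeR adjusted p = 3.56e-08). VGLL3, a TEAD cofactor, rose from 3.27 to 5.39 CPM (0.72; edgeR adjusted p = 3.43e-05). DCHS1, an atypical cadherin upstream of the pathway, fell from 27.3 to 17.2 CPM (-0.66; edgeR adjusted p = 9.74e-05). TAOK2, a kinase that acts on STK3 and STK4, fell too (-0.28; edgeR adjusted p = 5.04e-05), as did the scaffold genes RASSF2 (-0.37; edgeR adjusted p = 8.46e-05) and RASSF4 (-0.44; edgeR adjusted p = 8.52e-05).

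For genes of cell surface receptors that bind CCN proteins, 12 were listed and 10 tested, of which 0 rose by edgeR and 6 fell, with a median of -0.18. Of all tested genes 21.9% were higher and 24.1% lower. At an unadjusted edgeR p under 0.05, 1 was higher, as was 1 by DESeq2 and 0 by limma voom. Integrin alpha 6 (ITGA6) fell from 195 to 132 CPM (-0.57; edgeR adjusted p = 1.84e-05) and integrin alpha V (ITGAV) from 63.4 to 50.5 CPM (-0.33; edgeR adjusted p = 2.23e-05). The endocytic receptor gene LRP1 fell from 336 to 259 CPM (-0.38; edgeR adjusted p = 5.12e-05) and the Wnt coreceptor gene LRP6 by 0.36 on the log2 scale (edgeR adjusted p = 5.35e-05). ITGB5 (-0.25; edgeR adjusted p = 0.000301) and ITGB1 (-0.10; edgeR adjusted p = 0.0437) completed the 6.

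SRF drives cytoskeletal genes, with its actin-sensing MRTF cofactors, as well as immediate early genes. CCN1 and CCN2 are also known as targets of SRF. Of 25 tested SRF-linked genes 18 rose (72%) and 2 fell (8%), against 21.9% and 24.1% of all tested genes, and the median of the list was 0.42. FOS (4.36; edgeR adjusted p = 6.03e-11), FOSB (4.58; edgeR adjusted p = 3.4e-08) and EGR1 (2.85; edgeR adjusted p = 5.49e-10), immediate early transcription factors, had the steepest rises of the list. The cardiac actin gene ACTC1 rose by 2.0 (edgeR adjusted p = 3.19e-06) and the tropomyosin gene TPM2 by 0.46 (edgeR adjusted p = 3.68e-06), while the calponin relative TAGLN2 fell by 0.28 on the log2 scale (edgeR adjusted p = 4.81e-06). TAGLN, named after its values were seen, was at 199.6, 256, 616, 471 and 371 CPM in KO 1 to KO 5 and at 144 to 169 CPM in WT (1.33). TAGLN is in both the SRF-linked and the smooth muscle list.

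**Figure D5:**
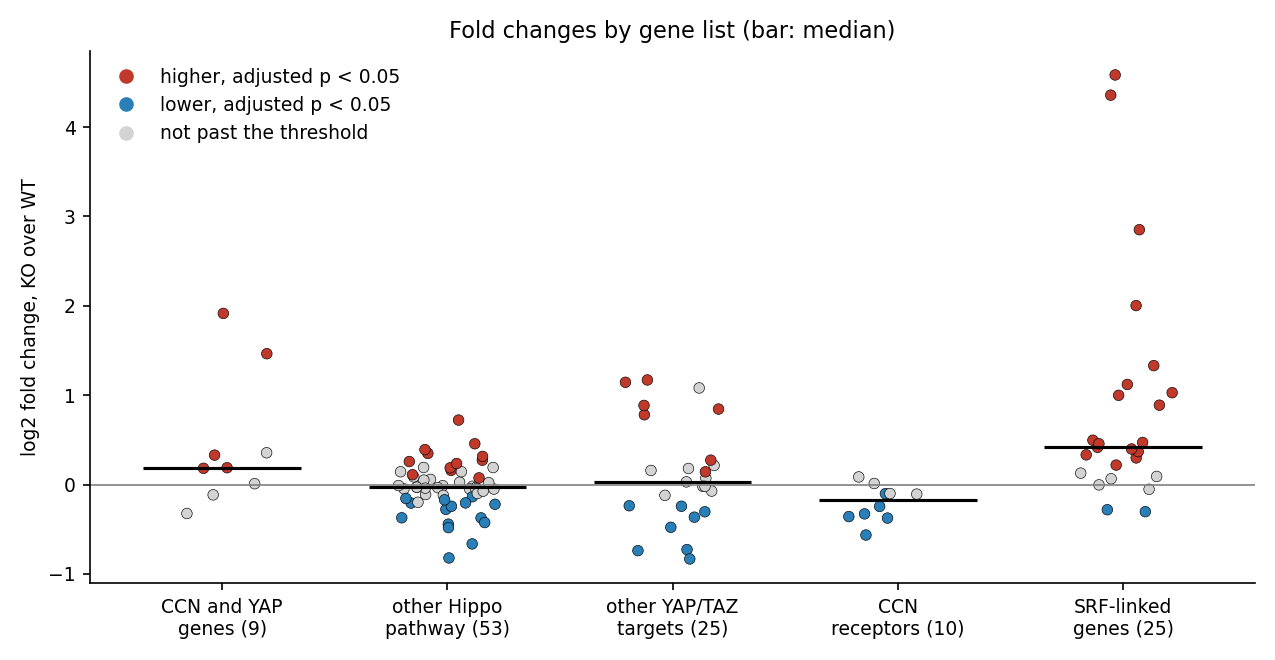
Log2 fold change, KO over WT, of each tested gene in 5 lists; red and blue mark genes past the edgeR threshold and bars are medians. The medians are 0.19 for the CCN and YAP genes, -0.03 for other Hippo genes, 0.03 for other YAP/TAZ targets, -0.18 for CCN receptors and 0.42 for SRF-linked genes.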

How the data were processed

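Per the labels' protocols, the 5 KO and 5 WT libraries of polyA RNA were read on a NovaSeq-6000 in 150 paired-end cycles. The authors deposited raw counts per gene, with no normalization, and hg38, DESeq2 and R 3.6.3 are named in the submitters' processing notes. The aligner, the counter, the annotation and any use of strand in counting were not given in the sources used here. Reads of antisense genes that overlap CCN2, CCN3, LATS1, LATS2, YAP1 and TEAD1 therefore cannot be told apart from theirs. The authors' deposited table of KO against WT holds log2 fold changes and adjusted p-values, which look shrunken towards 0, and its columns of mean signal and of the score (fold change over its error) were not used.

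The test on counts was that of edgeR 4.0.16 under R 4.3.3 (TMM, filterByExpr, glmQLFit and glmQLFTest on group, all 10 libraries). The p-values were adjusted over 19163 genes by Benjamini-Hochberg and called under 0.05. Standard errors, intervals and adjusted p-values are from that fit. Single values were tested by exact permutation of log2 CPM (prior count 2), or of the log2 of the ratio or share, with scipy 1.17.1. Lengths, positions and overlaps came from GENCODE 29, with 1 transcript a gene, and 31146 of 32152 genes had a position. Chi-square per degree of freedom between libraries of a group was 3.79 to 29.0, above sampling noise, and each library counted as 1 replicate. Intervals and floors cover counting error only where they come from counts, as there were no molecular identifiers. The edgeR step was tested on simulated counts.

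The 10 genes and the lists were chosen with earlier results of these data known. Named genes were the 10, KCNH2, the 6 smallest p-values of each of 4 lists, and the 5 genes most like CCN1, CCN2 and ANKRD1. Others are marked as chosen after their values were seen, and 1 listed gene is not reported here. Alternatives were DESeq2 size factors, DESeq2 1.42.0, limma 3.58.1 voom, no filter, at least 1 CPM in 5 libraries, a block on the replicate number, a length and GC offset (splines with 5 degrees of freedom), both of these, and libraries left out. The fit without KO 3 and KO 4 was added after seeing the data.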

Additional observations from a re-analysis of the deposited data

Results flagged for a closer look

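In 2 groups 1 library stood apart from the other 4 for YAP1. KO 1 was at 118 CPM and the other KO libraries at 108.9 to 110.1, so that its gap to the nearest was 0.855 of the group's range. WT 1 was at 104 CPM and the other WT libraries at 110.6 to 112.3, a gap of 0.789 of the range. The limit for 5 values is 0.71. These were 2 of 20 sets of 5 values examined, and chance alone gives about 1 in 20.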

How the results depend on the processing

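Across 21 alternatives, 20 of them planned, 341 of 356 comparisons with the reported results kept direction and side of the threshold (for counts, within 1.5 times). CCN1 (1.25 to 2.11), CCN2 (0.86 to 1.66), LATS1 (0.12 to 0.28) and LATS2 (0.20 to 0.46) were called higher in every one. Of the 10 genes, 1 was lower without KO 3 and KO 4, and 0 to 1 were with a library left out. Of other YAP/TAZ targets, 5 were lower with the length and GC offset, alone or with the replicate block. Of all tested genes, 4585 were lower with the offset alone and 4143 with both. AMOTL2 was at 0.32 with the block, 0.44 with the offset and 0.41 with both, and at 0.22 to 0.46 with a library left out, passing with the block, the offset and both, and without KO 1 or KO 2. TEAD1 was at -0.27 without KO 3 and KO 4, and at -0.18 to -0.055 with a library left out. TEAD4 was at 0.097 with the offset and 0.096 with offset and block. YAP1 was at 0.079 with the offset, and at -0.010 to 0.017 with a library left out, turning without WT 1. The cause of these changes was not tested. Same-numbered libraries deviated together with r from -0.157 to 0.698, and 1 of 5 KO libraries lay closest to its own number. This gave no clear sign of pairing by number. It cannot exclude pairing, because the largest correlations involved KO 3 (0.698 with WT 3 and -0.586 with WT 4). The block gave 4258 higher and 4300 lower genes of all tested, against 4201 and 4615. ANKRD1 has no values here because most fits leave it out. Depth limits CCN3 to CCN6 and ANKRD1, which had few counts in each library.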

Other observations

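The genes named here are tested markers of other lineages, named after their values were seen. Most listed markers of these lineages had too few counts to be tested. Of 7 listed trophoblast and amnion markers, 2 could be tested and both fell, as did 24.1% of all tested genes. GABRP, a chloride channel subunit and amnion marker, fell from 22.7 to 6.62 CPM (log2 fold change -1.78), and the keratin gene KRT7 from 9.03 to 5.86 CPM (-0.63; edgeR adjusted p = 0.00752). The sum of this list was 11.0 to 14.7 CPM in KO and 28.4 to 36.1 CPM in WT. FOXA2, a transcription factor of endoderm, fell from 3.73 to 0.400 CPM (-3.23), while AFP, a fetal serum protein, did not pass (0.11; edgeR adjusted p = 0.700). Of neural markers, the tubulin gene TUBB3 fell from 87.9 to 73.4 CPM (-0.26; edgeR adjusted p = 0.00477) and the neuronal gene DCX from 8.27 to 5.18 CPM (-0.68; edgeR adjusted p = 0.00134). Cardiac markers were mixed: the atrial myosin light chain gene MYL7 rose from 1.36 to 3.78 CPM (1.47; edgeR adjusted p = 0.000217), MYH6 and RYR2 fell, and TNNT2 was at 9.48 and 9.73 CPM and did not pass.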
